A study of Mus musculus with 32 samples.

Results

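Neurexins, neuroligins and leucine-rich repeat transmembrane proteins (LRRTMs) are the adhesion proteins examined here, by the level of their mRNA in the striatum of congenic mice. The members were chosen by name as 9 rows of the deposited gene count tables, which hold 23420 genes: *Nrxn2* and *Nrxn3*, the neuroligins *Nlgn1*, *Nlgn2* and *Nlgn3*, and *Lrrtm1* to *Lrrtm4*. All 9 members passed the filter on low counts that left 15589 genes for testing. RNA was sequenced from striatal punches of 8 C57BL/6J (B6) mice and 8 B6.D2 congenic littermates. The congenic mice were of Line 4a and carried, by the study's methods, 1 copy of a DBA/2J (D2) segment of chromosome 11 on a B6 background. B6 littermates were wild type for that segment. Both groups were naïve and came from mice of both sexes, punches of the left and right hemisphere were pooled within each mouse, and the labels give a punch size of 3 mm and an age of about 50 days. The study's methods differ from the labels in both, with a smaller punch and an age range that begins at the labelled age. The labels do not give sex or home cage for single mice. A D2-derived marker outside the segment was found by the study on chromosome 3, where *Nlgn1* lies, in mice of both genotypes of this line. The next markers tested on either side were B6. By position, though on differing assemblies, *Nlgn1* appears to lie between the D2-derived marker and the next distal one. The allele that each mouse carried at *Nlgn1* is not known.

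Neurexins are presynaptic membrane proteins whose extracellular domains reach across the synaptic cleft. Neuroligins and LRRTMs sit in the postsynaptic membrane, bind neurexins and recruit receptors and scaffold proteins to the contact. *Nlgn1* is best known from glutamatergic synapses and *Nlgn2* from GABAergic synapses, whereas LRRTMs are best known from glutamatergic synapses. In the striatum most neurons are GABAergic projection neurons, which receive glutamatergic axons from cortex and thalamus. The RNA of cell bodies inside the punch is what was measured, so a presynaptic protein made in distant cell bodies is not represented here by its mRNA.

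Between 19032826 and 33748353 reads per B6 mouse and between 24912413 and 32085311 reads per B6.D2 congenic mouse were counted on genes. Mice 1 to 4 of each genotype ran on lanes 5 and 6 and mice 5 to 8 on lanes 7 and 8. The lane files of a mouse were summed, and n counts mice throughout. A pair of libraries stood apart from the rest. Reads outside annotated exons made up 10.2% in B6.D2 congenic mouse 1 and 11.3% in B6 mouse 8, against 14.5% to 15.9% in the other 14 mice. Alignments that were not unique made up 27.3% in congenic mouse 1 and 19.5% to 21.4% in the other 15 mice. Both shares are of all entries counted in a mouse, where a read with several alignments may enter repeatedly. Counts that lead a paragraph are therefore also given without both libraries, a comparison chosen after the data were seen.

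Sequence before annotated transcript starts is shown for *Nlgn1*, *Lrrtm3* and *Lrrtm4* because their levels varied together between mice, as described further on. RefSeq promoter windows of GRCm38.p6 were matched by symbol for 6 of the 9 members. The 250 bases before an annotated start are printed 5′ to 3′ on the strand of the gene, and capitals mark a match to a searched motif. Both *Nlgn1* windows belong to starts inside the gene's full span, and the *Lrrtm4* window runs into the first bases of its gene.
Nlgn1 first window (GRCm38.p6 chr3:26331910-26332159, minus strand): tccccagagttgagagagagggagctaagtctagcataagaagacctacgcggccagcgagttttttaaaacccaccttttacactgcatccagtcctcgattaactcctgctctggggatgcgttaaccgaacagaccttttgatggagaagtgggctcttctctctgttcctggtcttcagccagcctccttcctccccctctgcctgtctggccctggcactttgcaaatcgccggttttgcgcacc
Nlgn1 second window (GRCm38.p6 chr3:26153987-26154236, minus strand): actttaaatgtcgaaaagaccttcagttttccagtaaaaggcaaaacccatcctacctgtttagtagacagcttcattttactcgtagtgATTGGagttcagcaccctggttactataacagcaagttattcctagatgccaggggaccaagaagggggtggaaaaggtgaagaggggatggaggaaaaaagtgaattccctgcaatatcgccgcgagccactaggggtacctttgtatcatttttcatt
Lrrtm3 (GRCm38.p6 chr10:64090256-64090505, minus strand): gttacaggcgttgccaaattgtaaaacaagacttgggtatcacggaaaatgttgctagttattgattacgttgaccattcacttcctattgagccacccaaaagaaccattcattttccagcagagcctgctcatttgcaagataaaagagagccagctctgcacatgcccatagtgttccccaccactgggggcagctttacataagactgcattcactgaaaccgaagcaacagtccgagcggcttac
Lrrtm4 (GRCm38.p6 chr6:80018627-80018876, plus strand): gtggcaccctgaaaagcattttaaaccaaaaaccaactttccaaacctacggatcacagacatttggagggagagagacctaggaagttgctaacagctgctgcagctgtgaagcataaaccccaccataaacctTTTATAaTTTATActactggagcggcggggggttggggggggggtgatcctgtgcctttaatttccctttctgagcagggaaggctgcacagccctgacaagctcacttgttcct
Both strands were searched for 6 motifs. These were AAAGGTCA (the NBRE motif of NR4A receptors), TGACGTCA (the cyclic AMP response element, or CRE), its part TGACG (the short CRE), which every full CRE also matches, TATAAA (the TATA box), CACGTG (an E-box) and CCAAT (the CCAAT box). Over all 32851 windows of this length, 1.34% held the NBRE motif, 1.55% the full CRE, 17.8% the short CRE, 12.4% the TATA box, 6.02% the E-box and 33.8% the CCAAT box. The *Lrrtm4* window held 2 matches to the TATA box, both on the other strand, and the second *Nlgn1* window held 1 match to the CCAAT box, also on the other strand. The 2 remaining windows printed held none of the 6 motifs, nor did the window of a further annotated *Lrrtm4* start inside the gene, which is not shown. GC content was 53.6% and 43.6% for *Nlgn1*, 46.0% for *Lrrtm3* and 49.2% for *Lrrtm4*, beside a median of 52.4% over all windows. No motif was found in windows of all 3 genes.

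The members lie on 8 chromosomes of GRCm38.p6, the RefSeq name of the assembly that the count tables call mm10. *Nrxn2* spans chr19:6418756-6533217 and *Nrxn3* spans chr12:88722701-90334935. *Nlgn1* spans chr3:25421808-26332866, *Nlgn2* chr11:69823123-69837784 and *Nlgn3* chrX:101299179-101321350. *Nlgn2* is the member on the chromosome of the congenic segment, and it lies distal to that segment. *Lrrtm1* (chr6:77229210-77259915) lies inside *Ctnna2*, *Lrrtm2* (chr18:35209003-35215024) inside *Ctnna1* and *Lrrtm3* (chr10:63928497-64090255) inside *Ctnna3*. These 3 host genes encode alpha-catenins, which couple cadherins to actin, and each is transcribed from the strand opposite to its guest. *Lrrtm4* (chr6:80018858-80810162) has no such host. The counting ignored the strand and left out reads that overlapped exons of more than 1 gene. In the NCBIM37 annotation 1543 bp of *Lrrtm4* exon (25.1%) overlap a predicted gene on the other strand, Gm4409. For *Nrxn2* 1005 bp of exon (7.27%) are shared with other genes, and for *Nlgn3* 749 bp (6.80%) are shared with *Med12*. The other 6 members share no exon base, so the levels of *Lrrtm4*, *Nrxn2* and *Nlgn3* are uncertain by the reads lost there.

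To ask how much of each adhesion protein's mRNA the striatum holds, the count of each gene was scaled to library size with TMM factors (CPM) and divided by its exon length in kb, which gives RPKM. *Nlgn2* had the highest level, with 48.3 ± 2.50 RPKM (SD, n = 16 mice), higher than 92.3% of the 14628 tested genes that had an annotated length. *Nrxn3* followed with 23.6 ± 0.94 RPKM and *Nrxn2* with 19.7 ± 1.47 RPKM. A group of 4 members was close together, with *Lrrtm1* at 17.9 ± 1.12, *Nlgn1* at 16.5 ± 1.72, *Lrrtm2* at 16.1 ± 1.49 and *Lrrtm3* at 15.5 ± 1.62 RPKM. *Nlgn3* had 7.15 ± 0.92 RPKM and *Lrrtm4* had the lowest level, 4.17 ± 0.47 RPKM, still higher than 40.1% of the genes. Neighbours in this order were compared within each mouse by exact two-sided sign-flip tests, with adjustment over the 8 pairs. In 6 of 8 pairs the levels differed by this test (exact sign-flip test, adjusted p of 0.00452 or less), in the same direction in 13 to 16 of the 16 mice. *Nlgn1* and *Lrrtm2* (exact sign-flip test, adjusted p = 0.208) and *Lrrtm2* and *Lrrtm3* (exact sign-flip test, adjusted p = 0.0748) did not. The order depended in part on which length was used. With the length of the longest annotated transcript in place of all exons, *Nrxn2* stood at 40.8 ± 3.05 RPKM and *Nrxn3* at 37.5 ± 1.50 RPKM, and *Nrxn2* was the higher in 14 of 16 mice. *Lrrtm3* then stood ahead of *Nlgn1* and *Lrrtm2*, and the lead of *Nlgn2* over the next gene went from 1.03 to 0.30 on the log2 scale.

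**Figure D1:**
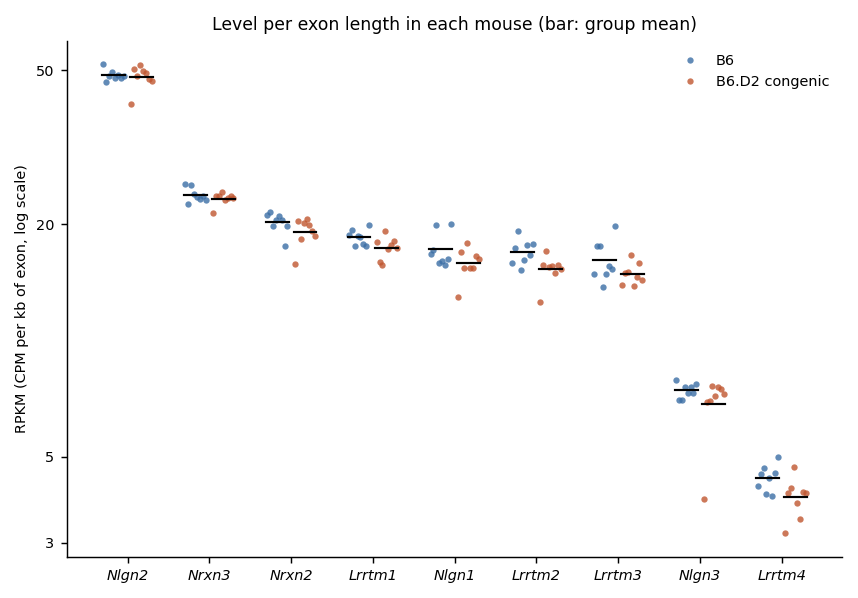
RPKM (CPM per kb of exon, log axis) of the 9 members in order of their mean level, with 1 point per mouse, B6 in blue and B6.D2 congenic in orange, and a black bar at each group's mean. *Nlgn2* stands alone near 48.3 RPKM, *Lrrtm1*, *Nlgn1*, *Lrrtm2* and *Lrrtm3* overlap between 15.5 and 17.9 RPKM in mean, and 1 congenic mouse lies far below the rest for *Nlgn3*.

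The main comparison set the B6.D2 congenic mice against their B6 littermates. All 9 members had a lower mean in the congenic mice, where 45.1% of all genes tested had a lower mean. The fitted differences were small, from 1.04% lower for *Nlgn2* to 11.1% lower for *Lrrtm4*. None of the 9 members passed an FDR of 5% or 20% (edgeR's quasi-likelihood test with Benjamini-Hochberg adjustment over all genes, lowest FDR 0.421), thresholds that 0.00641% and 0.0192% of all genes passed, the latter split into 0.00641% lower and 0.0128% higher. No member passed an FDR of 20% with DESeq2 or edgeR's likelihood ratio test either. An unadjusted p-value under 0.05 was reached by 2 members, *Lrrtm2* and *Lrrtm4*, both lower. Of all genes 10% reached it, 5.14% lower and 4.86% higher. For no member did the genotypes fail to overlap, and 0.0577% of all genes had groups without overlap. The median log2 fold change was −0.11 over the members and 0.01 over all genes tested. Without congenic mouse 1 and B6 mouse 8, 8 of 9 members kept a lower mean. In that setting 1 member, *Lrrtm2*, had an unadjusted p-value under 0.05, where 12.8% of all genes did. In bulk tissue, fewer cells of a type and less RNA per cell cannot be told apart.

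**Figure D2:**
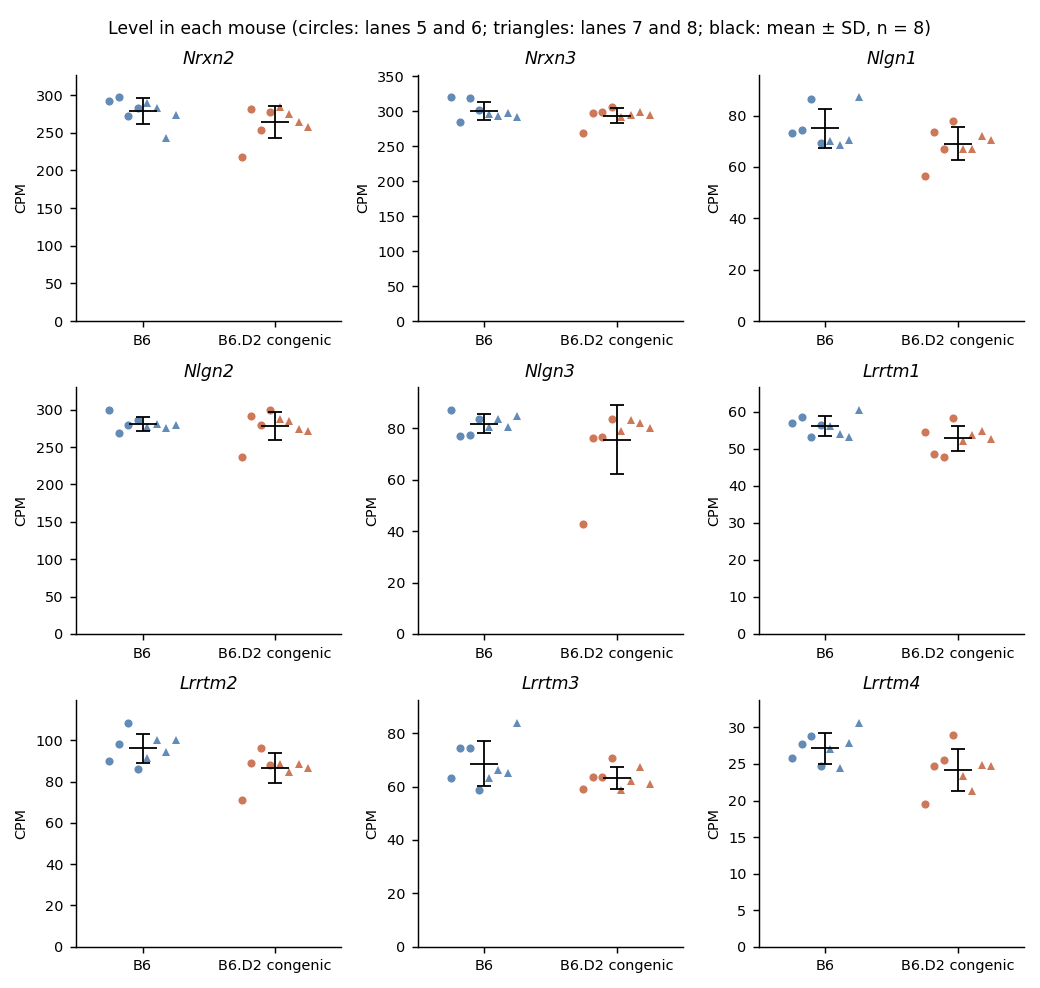
CPM of each member in each mouse, 1 panel per gene with axes from 0, B6 in blue and B6.D2 congenic in orange, circles for lanes 5 and 6, triangles for lanes 7 and 8, and black marks for mean ± SD (n = 8). Genotypes overlap in every panel, and the leftmost orange circle, congenic mouse 1, is the lowest congenic value in 7 of 9 panels.

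The neurexins, the presynaptic side of the contact, had a median log2 fold change of −0.06, beside −0.11 for the neuroligins and −0.13 for the LRRTMs. *Nrxn2* ran from 243.1 to 297.6 CPM in B6 mice (median 282.7, n = 8) and from 218.5 to 284.2 CPM in congenic mice (median 269.7, n = 8). Its congenic values were below the B6 median in 7 of 8 mice but within the B6 range in 7 of 8. In the fit it was 5.47% lower, with a 95% interval from −12.8% to 2.43% (unadjusted p = 0.159, FDR = 0.622, edgeR). Its log2 fold change went from −0.08 to −0.05 without congenic mouse 1. *Nrxn3*, the neurexin with the most reads, ran from 284.7 to 320.7 CPM in B6 mice (median 297.0) and from 269.8 to 305.8 CPM in congenic mice (median 296.6). The medians were nearly equal and 4 of 8 congenic mice were below that of B6. The difference was 2.19% lower, with an interval from −7.54% to 3.47% (unadjusted p = 0.420, FDR = 0.796, edgeR). The log2 fold change of *Nrxn2* was −0.15 on lanes 5 and 6 (unadjusted p = 0.133 by edgeR) and −0.02 on lanes 7 and 8 (unadjusted p = 0.814 by edgeR).

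Among the neuroligins, *Nlgn1*, the glutamatergic type, ran from 68.5 to 87.3 CPM in B6 mice (median 71.9) and from 56.4 to 77.9 CPM in congenic mice (median 68.8). Its highest B6 values were those of mice 3 and 8, at 86.6 and 87.3 CPM, and 4 of 8 congenic mice were below every B6 mouse. The fitted difference was 8.06% lower, with a 95% interval from −16.6% to 1.37% (unadjusted p = 0.0873, FDR = 0.558, edgeR). Without congenic mouse 1 and B6 mouse 8 its log2 fold change went from −0.12 to −0.05. *Nlgn2*, the GABAergic type, ran from 268.9 to 299.8 CPM in B6 mice (median 279.3) and from 236.5 to 299.1 CPM in congenic mice (median 282.0). The congenic median was the higher, and the fitted difference was 1.04% lower, with an interval from −7.35% to 5.69% (unadjusted p = 0.742, FDR = 0.923, edgeR). Its sign turned without congenic mouse 1, to a log2 fold change of 0.01.

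*Nlgn3*, whose product occurs at both kinds of synapse and which is X-linked, ran from 77.1 to 87.2 CPM in B6 mice (median 82.1) and from 42.9 to 83.7 CPM in congenic mice (median 79.7). Congenic mouse 1 had the value of 42.9 CPM, and the other 7 congenic mice lay between 76.4 and 83.7 CPM. The fitted difference was 7.66% lower, with a 95% interval from −20.0% to 6.54% (unadjusted p = 0.257, FDR = 0.696, edgeR). Without congenic mouse 1 its log2 fold change moved from −0.11 to −0.03 (unadjusted p = 0.406 by edgeR). The part that the shares of unplaced reads in this library have in that value was not tested.

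The LRRTMs held both members below an unadjusted p-value of 0.05. *Lrrtm2*, a neurexin ligand of excitatory synapses, ran from 86.3 to 108.6 CPM in B6 mice (median 96.2) and from 71.1 to 96.5 CPM in congenic mice (median 88.2). Of the congenic mice 7 of 8 were below the B6 median, and 4 of 8 B6 mice were above every congenic mouse. Its level was 9.92% lower in the fit, with a 95% interval from −17.1% to −2.15% (unadjusted p = 0.0161, FDR = 0.421, edgeR). An exact two-sided permutation test over the 16 mice, whose smallest possible p is 1.55e-04, gave p = 0.0124. Its log2 fold change was −0.15 on lanes 5 and 6 and −0.15 on lanes 7 and 8, and −0.11 without congenic mouse 1 and B6 mouse 8 (unadjusted p = 0.0245 by edgeR).

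*Lrrtm4*, an LRRTM that also binds heparan sulfate proteoglycans, ran from 24.4 to 30.6 CPM in B6 mice (median 27.4) and from 19.5 to 29.0 CPM in congenic mice (median 24.8). Congenic mouse 4 had 29.0 CPM, and the other 7 congenic mice were below the B6 median. Of the 8 congenic mice 5 were within the B6 range and 3 were below every B6 mouse. A difference of 11.1% lower was fitted, with a 95% interval from −19.8% to −1.36% (unadjusted p = 0.0286, FDR = 0.462, edgeR; exact permutation p = 0.0311). Its log2 fold change was −0.11 on lanes 5 and 6, −0.23 on lanes 7 and 8 and, with the unadjusted p then at 0.0845 by edgeR, −0.11 without congenic mouse 1 and B6 mouse 8. *Lrrtm4* had the fewest reads of any member, 532 to 936 in a mouse.

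*Lrrtm1*, whose coefficient of variation in B6 mice was the lowest of the LRRTMs (4.67%), ran from 53.1 to 60.5 CPM there (median 56.3) and from 47.6 to 58.2 CPM in congenic mice (median 53.1). Its congenic values were below the B6 median in 7 of 8 mice. The fitted difference was 5.93% lower, with a 95% interval from −12% to 0.515% (unadjusted p = 0.0685, FDR = 0.531, edgeR; exact permutation p = 0.0471). *Lrrtm3* ran from 58.6 to 83.9 CPM in B6 mice (median 65.6) and from 58.7 to 70.5 CPM in congenic mice (median 63.0). The highest B6 values, 74.5, 74.6 and 83.9 CPM, were above every congenic mouse, and all 8 congenic values were within the B6 range. The difference was 7.77% lower, with an interval from −16.2% to 1.55% (unadjusted p = 0.0945, FDR = 0.564, edgeR), and its log2 fold change was −0.06 without congenic mouse 1 and B6 mouse 8. Exact permutation tests were run for each of the 9 members and 3 host genes, and their p-values are not adjusted.

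**Figure D3:**
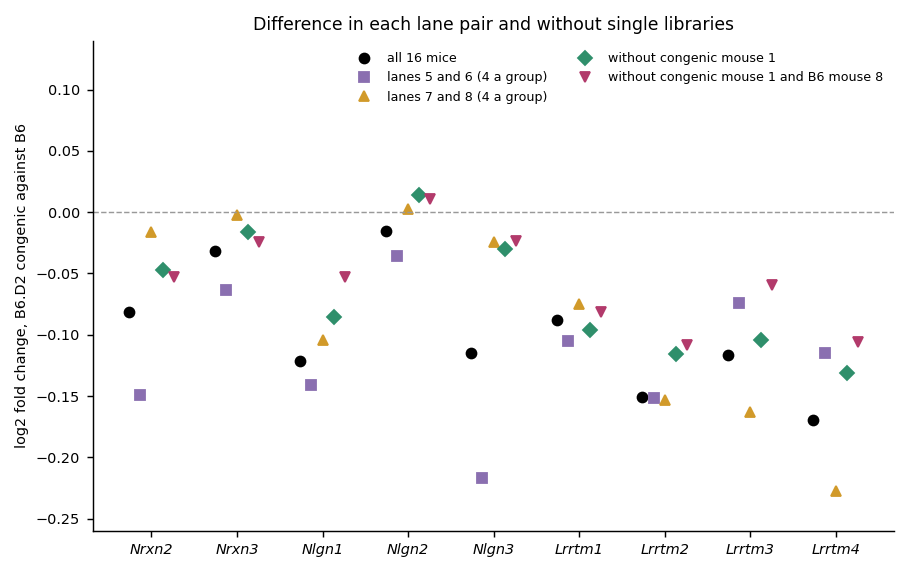
Log2 fold change (B6.D2 congenic against B6, y axis) of each member in all 16 mice (black circles), in the mice of each lane pair (purple squares and yellow triangles), without congenic mouse 1 (green diamonds) and without congenic mouse 1 and B6 mouse 8 (pink triangles). *Lrrtm2* stays between −0.15 and −0.11, *Nlgn2* crosses 0, and *Nlgn3* moves from −0.11 to −0.03 without congenic mouse 1.

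No member's difference depended on the lane pair at an unadjusted p-value under 0.05 (genotype by lane pair interaction, edgeR), a threshold that 1.88% of all genes passed. The smallest unadjusted p of this interaction among the members was 0.234, for *Nrxn2*.

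Because 3 LRRTM genes lie inside alpha-catenin genes, the hosts were described beside their guests. *Ctnna2*, the neural alpha-catenin and host of *Lrrtm1*, ran from 149.5 to 165.1 CPM in B6 mice (median 152.1) and from 128.7 to 150.2 CPM in congenic mice (median 146.5). All but 1 of the congenic mice were below every B6 mouse. It was 6.53% lower in the fit (unadjusted p = 0.0195, FDR = 0.437, edgeR; exact permutation p = 4.66e-04). *Ctnna1*, the host of *Lrrtm2*, had a log2 fold change of 0.07 ± 0.05 (SE), the opposite sign to its guest. *Ctnna3*, the host of *Lrrtm3*, had far fewer reads than its guest, 2.19 ± 0.60 CPM in B6 and 1.78 ± 0.48 CPM in congenic mice (SD, n = 8).

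Ratios between members were compared as well, since the balance of neuroligin types is often read as a balance of excitatory and inhibitory contacts. The ratio of *Nlgn1* to *Nlgn2* counts was 0.266 in B6 mice and 0.248 in congenic mice, a log2 difference of −0.10 (exact two-sided permutation test, p = 0.115, adjusted over 3 ratios 0.219). The ratio of *Nrxn3* to *Nrxn2* was 1.08 and 1.12, a log2 difference of 0.05 (exact permutation p = 0.322, adjusted p = 0.322). The ratio of the summed LRRTMs to the summed neuroligins was 0.566 and 0.538, a log2 difference of −0.07 (exact permutation p = 0.146, adjusted p = 0.219). None of the 3 ratios passed the test after adjustment. Without congenic mouse 1 the log2 difference of the LRRTM to neuroligin ratio was −0.10 (exact permutation p = 0.0426, adjusted p = 0.128). The same difference was −0.02 on lanes 5 and 6 and −0.12 on lanes 7 and 8 (exact permutation p = 0.857 and 0.0286, adjusted p = 0.857 and 0.0857). An exact permutation p of 0.0286 is the smallest possible within a lane pair. Adjustment over 3 ratios therefore kept 1 ratio alone from passing 0.05 there, whatever its values.

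Levels were next compared between mice of the same genotype, after the genotype mean of each gene had been subtracted. Of the 36 pairs of members 32 were positively correlated, with a median r of 0.44, and 10 pairs had an adjusted permutation p under 0.05. Correlations between other genes were not computed, so these figures are not shown to be particular to the members. The highest r, 0.86, was that of *Nlgn2* and *Nlgn3*, with a Spearman's rho of 0.58. By rho the closest pairs joined *Nlgn1* with LRRTMs. *Nlgn1* and *Lrrtm4*, whose upstream windows are printed above, had r = 0.84 and rho = 0.76 (permutation test, adjusted p = 0.00288 and 0.0272, n = 16). *Nlgn1* and *Lrrtm3* had r = 0.79 and rho = 0.74 (permutation test, adjusted p = 0.00468 and 0.0272). *Lrrtm3* and *Lrrtm4* had r = 0.70 and rho = 0.71, and *Lrrtm2* and *Lrrtm4* had r = 0.67 and rho = 0.65. These 4 pairs were positive within both lane pairs. *Nrxn3* and *Nlgn2* had r = 0.78 and rho = 0.66, but r = 0.85 within lanes 5 and 6 and r = −0.64 within lanes 7 and 8.

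Much of this shared variation rested on few libraries. Leaving out for each pair the 2 mice farthest from the median of the first gene left 1 of 36 pairs with an adjusted p under 0.05, *Nlgn1* and *Lrrtm3* (r = 0.77). Without congenic mouse 1 and B6 mouse 8 no pair passed by the permutation test with adjustment over 36 pairs, 8 pairs had an unadjusted p under 0.05, 25 pairs were positive and the median r was 0.15. *Nlgn1* and *Lrrtm3* then had r = 0.75 (permutation test, unadjusted p = 0.00187, adjusted p = 0.0673), and *Nlgn1* and *Lrrtm4* had r = 0.68 (permutation test, unadjusted p = 0.00736, adjusted p = 0.0966). *Nlgn2* and *Nlgn3* moved from r = 0.86 to r = 0.51.

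**Figure D4:**
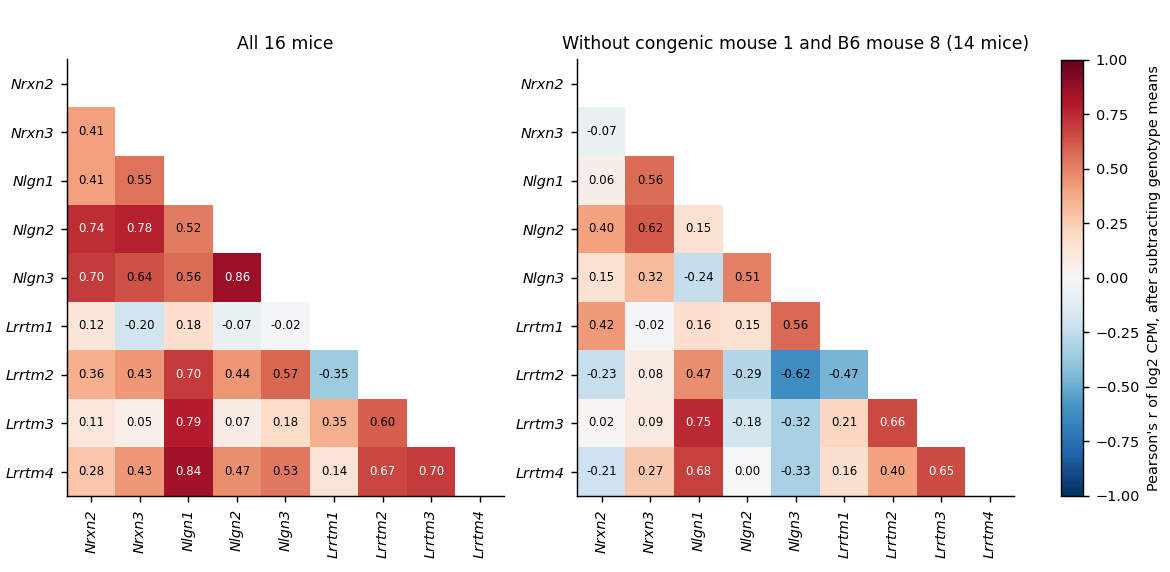
Pearson's r between log2 CPM of each pair of members, after genotype means were subtracted, in all 16 mice (left) and without congenic mouse 1 and B6 mouse 8 (right), with red for positive and blue for negative r. The block of *Nrxn2*, *Nrxn3*, *Nlgn2* and *Nlgn3* pales on the right, while *Nlgn1* with *Lrrtm3* goes from 0.79 to 0.75.

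Other genes of these contacts were described from 4 lists of 66 genes, all of which were tested. A mean lower in the congenic mice was seen for 59 of the 66, and 19 (28.8%) had an unadjusted p-value under 0.05, 18 lower and 1 higher, where 10% of all genes did. None passed an FDR of 20% by edgeR's quasi-likelihood test (lowest FDR 0.331), and the median log2 fold change was −0.10. At that FDR 9 of the 66 genes passed with DESeq2 and 7 with edgeR's likelihood ratio test, where 264 and 186 of all genes did. All were lower in the congenic mice, and *Cbln2*, *C1ql3*, *Nxph3*, *Lin7a*, *Slitrk1*, *Lrfn1* and *Lrfn2* passed with both tools. Without congenic mouse 1 and B6 mouse 8, 24 of the 66 genes had an unadjusted p-value under 0.05, where 12.8% of all genes did. Of the 66 genes 5 were in the study's own lists of differentially expressed genes, which were drawn from these samples and are no independent evidence.

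Among the 15 secreted and membrane ligands of neurexins 4 were lower and 1 was higher at an unadjusted p-value under 0.05. Of all genes 5.14% were lower and 4.86% higher at that threshold. The median log2 fold change of the ligands was −0.12. *Cbln2*, a secreted cerebellin that bridges neurexins to delta glutamate receptors, had 14.6 ± 3.19 CPM in B6 mice and 9.50 ± 2.24 CPM in congenic mice (SD, n = 8), with a log2 fold change of −0.63 ± 0.15 (SE; FDR = 0.331, edgeR). *C1ql3*, a secreted C1q-like protein, had a log2 fold change of −0.52 ± 0.15 (SE; FDR = 0.340, edgeR), and *Nxph3*, a neurexophilin that binds neurexins, had −0.40 ± 0.09 (SE; FDR = 0.331, edgeR), and both were in the study's lists. The ligand that was higher, named after its value was seen, was *C1ql2*, with 1.74 ± 0.43 CPM in B6 mice and 2.33 ± 0.39 CPM in congenic mice (SD, n = 8; log2 fold change 0.41, FDR = 0.406, edgeR).

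Inside the cell, 3 of 12 partners were lower at an unadjusted p-value under 0.05 and none was higher, where 5.14% of all genes were lower. The median log2 fold change of these partners was −0.07. *Lin7a* and *Cask*, which encode parts of the presynaptic complex that binds the neurexin tail, had log2 fold changes of −0.25 ± 0.06 and −0.18 ± 0.05 (SE; FDR = 0.331 and 0.361, edgeR). *Apba1*, which encodes the third protein of that complex, had −0.14 ± 0.07 (SE; FDR = 0.491, edgeR), and −0.09 without congenic mouse 1 (unadjusted p = 0.0569 by edgeR). Every congenic mouse was below the B6 median for *Lin7a* and for *Cask*. Both were named for their small p-values in these data, so this is no further evidence.

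Of 7 regulators 2 were lower at an unadjusted p-value under 0.05, where 5.14% of all genes were. The median log2 fold change of the regulators was −0.09. *Khdrbs3*, an RNA-binding protein known to control alternative splicing of neurexins, had a log2 fold change of −0.20 ± 0.07 (SE; FDR = 0.408, edgeR). *Adam10*, a protease that cleaves synaptic adhesion proteins, had −0.09 ± 0.04 (SE; FDR = 0.456, edgeR), and *Mdga2*, which encodes an inhibitor of neuroligin binding, had −0.10 ± 0.06 (SE; FDR = 0.562, edgeR).

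Of 32 other synaptic adhesion genes 9 were lower at an unadjusted p-value under 0.05 and none was higher, where 5.14% of all genes were lower. The median log2 fold change of this list was −0.10. *Lrfn2* and *Lrfn1*, which encode synaptic leucine-rich proteins of the SALM family, had −0.38 ± 0.10 and −0.29 ± 0.08 (SE; both FDR = 0.331, edgeR). *Slitrk1*, a postsynaptic partner of receptor protein tyrosine phosphatases, had −0.29 ± 0.07 (SE; FDR = 0.331, edgeR). Every congenic mouse was below the B6 median for these 3 genes. They were named for their small p-values in these data, so this is no further evidence.

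**Figure D5:**
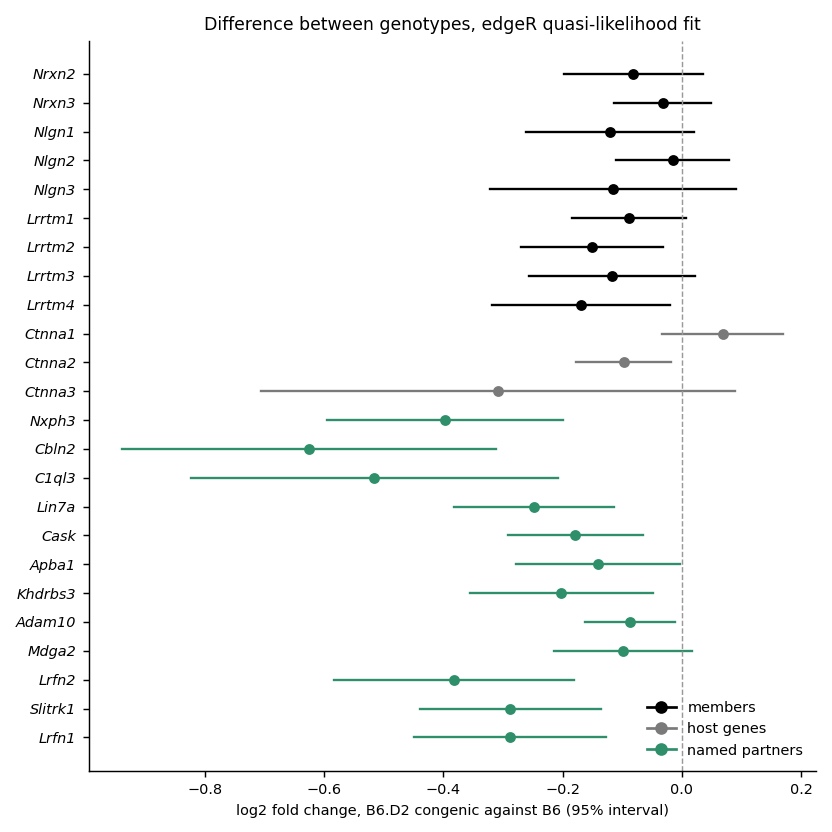
Log2 fold change (x axis, B6.D2 congenic against B6, with 95% interval from edgeR's quasi-likelihood fit, n = 8 mice a group) of the 9 members in black, the 3 host genes in grey and 12 named partners in green, 1 row per gene. Points of all members lie within 0.17 of 0, whereas *Cbln2* and *C1ql3* lie at −0.63 and −0.52.

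Markers of cortical glutamatergic neurons were measured beside these genes. All 17 had a lower mean in the congenic mice, where 45.1% of all genes did. Of the 17, 12 had an unadjusted p-value under 0.05, where 10% of all genes did. Without congenic mouse 1 and B6 mouse 8, all 17 stayed lower and 14 had such a p-value, where 12.8% of all genes did. With all mice the median log2 fold change was −0.52, and 8 of the 17 were in the study's lists. Those lists were drawn from these samples, so the 8 markers are no independent evidence. All 17 were also chosen with earlier results of these data known. With all mice none of the 17 passed an FDR of 20% by edgeR's quasi-likelihood test (lowest FDR 0.331). At that FDR 8 passed with DESeq2 and 6 with edgeR's likelihood ratio test, where 264 and 186 of all genes did. Their summed level ran from 583 to 973 CPM in B6 mice (median 825) and from 413 to 839 CPM in congenic mice (median 581), and none was at 0 in every mouse. A score from the 9 cortical markers outside the study's lists was 0.38 ± 0.70 in B6 mice and −0.38 ± 0.70 in congenic mice (SD, n = 8; exact permutation p = 0.0493). With that score as a covariate the members' log2 fold changes were −0.02 for *Nrxn2*, −0.02 for *Nrxn3*, −0.09 for *Nlgn1*, 0.004 for *Nlgn2*, −0.13 for *Nlgn3*, −0.09 for *Lrrtm1*, −0.14 for *Lrrtm2*, −0.10 for *Lrrtm3* and −0.16 for *Lrrtm4*, and no member had an unadjusted p-value under 0.05. *Lrrtm2* and *Lrrtm4* then had unadjusted p-values of 0.0583 and 0.0758 (edgeR). Of the 66 partners 10 had an unadjusted p-value under 0.05 with the score in the model, where 3.52% of all genes did, and *Khdrbs3*, *Cask* and *Apba1* were no longer among them (unadjusted p = 0.146, 0.0517 and 0.160 by edgeR). The log2 fold change was then −0.31 for *Cbln2*, −0.26 for *C1ql3* and *Nxph3*, −0.20 for *Lrfn2*, −0.19 for *Lrfn1*, −0.16 for *Slitrk1*, −0.14 for *Lin7a* and −0.12 for *Khdrbs3*.

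The labelled tissue was matched by its markers. The 12 markers of striatal projection neurons summed to 6242 to 9201 CPM in B6 mice and 6809 to 7880 CPM in congenic mice, and none had an unadjusted p-value under 0.05. Of the 8 oligodendrocyte, 7 astrocyte, 6 microglia, 4 endothelial, 5 choroid plexus and 3 oligodendrocyte precursor markers, none passed that threshold either, although all oligodendrocyte, microglia and endothelial markers had higher means in the congenic mice. Of 5 interneuron markers 1 was higher at that threshold, where 4.86% of all genes were. It was *Slc5a7*, the choline transporter of cholinergic neurons, named after its value was seen (log2 fold change 0.19, FDR = 0.436, edgeR). Of 6 hypothalamic markers 3 were tested and none passed.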

How the data were processed

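Striatal RNA of 16 mice was sequenced by the authors on pairs of lanes (oligo-dT libraries, single-end reads). Per the labels and the study's scripts, reads were aligned to mm10 by TopHat, and htseq-count 0.6.1p1 (union mode, strand ignored) assigned them to genes. The deposited values are counts, 1 file per mouse and lane, not normalized. No value was taken from the authors' own comparison tables (fold changes, p-values and FDRs from an edgeR model with home cage). The study's lists of differentially expressed genes served only to mark listed genes and to leave them out of the cortical score.

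The lane files of a mouse were summed (31 files, 1 for B6 mouse 7), after 15 pairs of files were compared (chi-square per degree of freedom 0.997 to 1.051 over genes with at least 20 counts, so some pairs differed slightly more than by sampling alone). Mice were grouped by the labelled genotype. Genes were filtered with filterByExpr, scaled by TMM, and fitted in edgeR 4.0.16 (R 4.3.3), whose quasi-likelihood test was used with Benjamini-Hochberg adjustment over 15589 genes, a biological coefficient of variation of 13% and no covariate. Home cage, which the labels do not give, could not enter. Between 532 and 10227 reads per mouse fell on each member, and the spread between mice includes that counting error. Single values were compared with exact two-sided permutation or sign-flip tests and correlations with 100000 permutations (scipy 1.17.1). Log2 CPM used a prior count of 0.5. Exon lengths came from the GENCODE annotation of NCBIM37 and positions and promoters from RefSeq for GRCm38.p6. The fits were tested on simulated data.

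The members and all lists of partners and markers were chosen with earlier results of these data known. Named are all members, the 3 host genes and, in each partner list, the 3 genes with the smallest p-value and any gene at an FDR of 20%. Alternatives were other normalizations, filters and tests (DESeq2 1.42.0, edgeR's likelihood ratio test), blocks, lane pairs, the cortical score and leaving out mice.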

Additional observations from a re-analysis of the deposited data

Results flagged for a closer look

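Each member and each ratio between members was searched for a mouse far from the others of its genotype, by Dixon's criterion at its 95% critical value for 8 samples. Of 24 groups of 8 values 7 held such a mouse, where chance gives about 1 in 20, and these values are not independent because 6 of the 7 came from B6.D2 congenic mouse 1. In that mouse *Nrxn2* had 218.5 CPM, *Nrxn3* 269.8 CPM, *Nlgn2* 236.5 CPM, *Nlgn3* 42.9 CPM and *Lrrtm2* 71.1 CPM, each the lowest value of the congenic group. *Nlgn3* lay farthest from the rest, since its gap to the next congenic mouse was 0.820 of the group's range. The log2 ratio of the summed LRRTMs to the summed neuroligins was −0.72 in the same mouse, the highest of the congenic group. Its library also had the lowest share of reads outside exons and the highest share of alignments that were not unique. The part of these shares in the values was not tested. The remaining value was that of *Nrxn2* in B6 mouse 7, 243.1 CPM, the lowest of its group, and this mouse was represented by 1 lane file.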

How the results depend on the processing

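No member passed an FDR of 20% under any of the 29 alternatives run for each (261 results, lowest FDR 0.276). The sign of a member turned in 5 of the 261, all for *Nlgn2*, whose log2 fold change was 0.0023 on lanes 7 and 8 alone, 0.0045 with the cortical score, −0.033 to 0.014 without single mice (0.0012 without B6 mouse 1 and 0.014 without congenic mouse 1) and 0.011 without both libraries with few reads outside exons. *Ctnna1* turned to −0.010 with the cortical score. Members at an unadjusted p-value under 0.05, of which there were 2, numbered 0 on lanes 5 and 6, 1 with the second lane file of each mouse, 0 with the cortical score, 1 without both libraries, and 1 to 5 without single mice, with 5 without congenic mouse 4 and 1 without B6 mouse 3, B6 mouse 8 or congenic mouse 6. Leaving out single mice left 8 or 9 members with a lower mean. Over all genes, 1 passed an FDR of 5%, against 25 with DESeq2, 20 with the likelihood ratio test, 2 with lane pair as a covariate, 0 on either lane pair or with the cortical score, 7 without both libraries, and 1 to 4 without single mice. At an FDR of 20% there were 3 genes, against 264 with DESeq2, 186 with the likelihood ratio test, 1 on lanes 5 and 6, 0 on lanes 7 and 8, 1 with the cortical score, 14 without both libraries, and 1 to 114 without single mice (114 without congenic mouse 2, 90 without B6 mouse 7, 84 without B6 mouse 4). Unadjusted p-values under 0.05 numbered 1559 genes, 500 on lanes 5 and 6 and 1407 on lanes 7 and 8. They numbered 549 with the cortical score, 1990 without both libraries and 1107 to 2087 without single mice. The log2 ratio differences ran from −0.12 to −0.06 for *Nlgn1* to *Nlgn2*, 0.01 to 0.09 for *Nrxn3* to *Nrxn2* and −0.12 to −0.02 for LRRTMs to neuroligins over all alternatives, with no adjusted p under 0.05. Within a lane pair 1 ratio alone could not reach such an adjusted p. Pairs of correlated members fell from 10 to 1 without the 2 farthest mice and to 0 without both libraries. The cause of these shifts was not tested, and single lane pairs also held fewer mice.

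Whether the replicate numbers pair the mice is not given by the labels and was not tested. Deviations of mice with the same number correlated from −0.115 to 0.364, and 2 of 8 numbers correlated best with their own. The median correlation with the other numbers ran from −0.0778 to 0.117. With the replicate number as a block 0 genes passed an FDR of 5%, 3 an FDR of 20% and 1377 an unadjusted p-value under 0.05, and 2 members were at an unadjusted p-value under 0.05.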

Other observations

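*Med12*, which encodes a subunit of the Mediator complex and shares exon bases with *Nlgn3* on the X chromosome, was looked at after the value of *Nlgn3* in congenic mouse 1 had been seen. It had 28.6 CPM in congenic mouse 1 and 57.1 to 64.4 CPM in the other 7 congenic mice, and 30.2 to 62.0 CPM in B6 mice (median 57.4). Its log2 fold change between genotypes was 0.11 ± 0.15 (SE; FDR = 0.822, edgeR's quasi-likelihood test, n = 8 mice a group).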
